A study of Bos taurus and Bos indicus with 12 samples.

Results

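Glutathione transferases, a quinone reductase, a flavin monooxygenase and a cytochrome P450 were followed in the skin of Brahman and Holstein-Friesian cattle with and without the cattle tick Rhipicephalus microplus. The genes were GSTA2, GSTP1, MGST1, NQO1, FMO5 and CYP1A1, and their members were all probe sets of the array that the platform annotation gives 1 of these symbols and no other. There were 15 such probe sets among 24016 tested, 5 each for GSTA2 and FMO5, 3 for CYP1A1 and 1 each for MGST1 and NQO1. No probe set carried the symbol GSTP1, so 5 of the 6 genes were measured. Among the infested minus naive differences known when these genes were chosen were those of NQO1 and 1 GSTA2 probe set in Holstein-Friesian and of FMO5 in Brahman skin. The genes were thus chosen by infested minus naive differences in signal, and their infestation values are given as a description, without p-values.

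Full-thickness skin punches came from 12 female cattle, and each animal's RNA was hybridised to 1 Affymetrix bovine array. Infested Brahman and infested Holstein-Friesian animals were 6 months old, had been through successive heavy infestations, and were sampled where larvae about 24 h old were attached. Naive Brahman animals were 18 months old and naive Holstein-Friesian animals 12 months old, and none had met this tick. Each of the 4 groups held 3 animals, so n = 3 arrays per group throughout, and age cannot be told apart from infestation within a breed. Brahman is an indicine breed known for tick resistance, and Holstein-Friesian is a taurine dairy breed.

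Xenobiotic metabolism is usually described in phases. Oxidising enzymes such as cytochromes P450 and flavin-containing monooxygenases add or expose a reactive group, and conjugating enzymes such as the glutathione transferases then attach a water-soluble one. NQO1 reduces quinones to hydroquinones without releasing the reactive semiquinone. Many of these genes are targets of the transcription factor NRF2 (gene NFE2L2), which responds to oxidative and electrophilic stress, while CYP1A1 is the classic target of the aryl hydrocarbon receptor. In skin such enzymes are known from epidermal keratinocytes and from sebaceous glands.

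Values are RMA (robust multi-array average) signals on the log2 scale, on which 1 unit is a doubling, and the number of arrays limits their precision. Keratinocyte genes marked the tissue as skin, with KRT14, KRT10 and KRT5 at mean signals of 14.37, 14.25 and 13.90 log2. The arrays differed in RNA integrity, read as the mean 5' minus 3' signal of 5 control transcripts. This index lay between -4.91 and -2.07 log2 in infested Brahman, -1.04 and -0.85 in naive Brahman, -2.73 and -0.75 in infested Holstein-Friesian and -1.39 and -0.82 in naive Holstein-Friesian arrays. The lowest indices belonged to infested Brahman 1 and infested Holstein-Friesian 1. RNA broken or primed mainly near its 3' end gives a low index. In whole-skin RNA, fewer cells of a type and less RNA per cell cannot be told apart, and this holds for every difference below.

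Most of the 15 probe sets had lower signal in infested than in naive skin in both breeds. In Brahman animals 13 of 15 differences were negative, with a median of -1.62 log2, against 0.04 over all probe sets tested. Of the 15, 9 passed an adjusted p of 0.05 in limma, all of them lower, where 19.8% of all probe sets passed in either direction and 10.2% as lower. In Holstein-Friesian animals 13 of 15 were negative, with a median of -0.82 against -0.03 over all. There 4 of the 15 passed, all lower, where 5.02% of all probe sets passed and 2.34% as lower. Infested arrays lay wholly below naive arrays for 10 of 15 probe sets in Brahman animals, where 19.3% of all probe sets did so, and for 5 of 15 in Holstein-Friesian animals, where 16.0% did. Since these genes were chosen with the infestation differences known, nothing is read from those shares. Adding the RNA integrity index as a covariate left 4 of the 9 passing in Brahman animals, 2 of GSTA2 and 1 each of NQO1 and FMO5. Over all 24016 probe sets 1808 passed in that fit. The index did not overlap between infested and naive Brahman arrays, so fits with it cannot tell integrity apart from infestation there. Without naive Holstein-Friesian 1 none of the 4 passed in Holstein-Friesian animals, where 157 of all probe sets did.

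**Figure D1:**
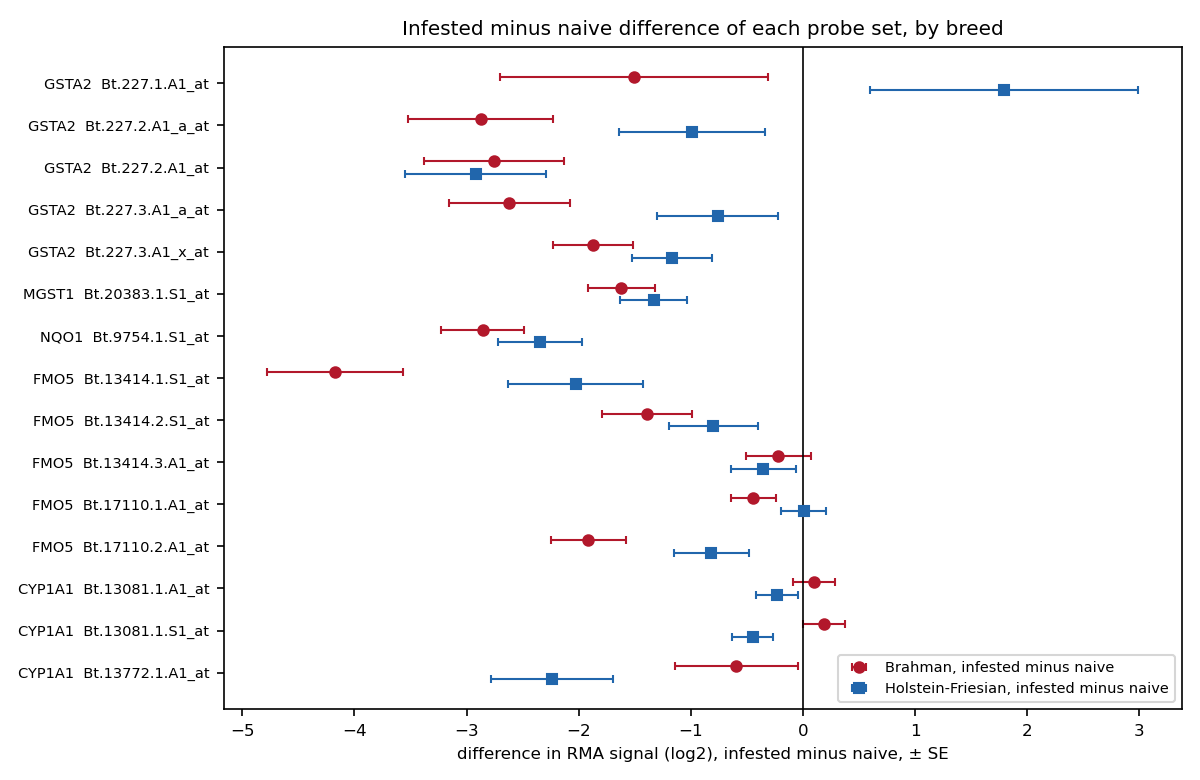
Infested minus naive difference in RMA signal (x axis, log2, with SE from the limma fit) of each of the 15 probe sets (y axis), with red circles for Brahman and blue squares for Holstein-Friesian animals. Differences run from -4.17 for an FMO5 probe set in Brahman to 1.79 for a GSTA2 probe set in Holstein-Friesian animals, and the NQO1 and MGST1 points of both breeds lie below zero.

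GSTA2 encodes an alpha-class glutathione transferase, a cytosolic enzyme that conjugates glutathione to electrophiles and reduces lipid hydroperoxides. In the RefSeq gene table (ARS-UCD2.0) its nearest downstream neighbours are GSTA1, GSTA5, GSTA3 and GSTA4. Signal of these paralogs could reach the probe sets of GSTA2, but no sequences were compared. All 5 of its probe sets were lower in infested Brahman skin, and 4 of these 5 passed. In Holstein-Friesian skin 4 were lower and 1 was higher, and 1 of them passed.

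Probe set Bt.227.2.A1_at of GSTA2 stood at 8.46, 7.90 and 5.75 log2 in infested Brahman 1, 2 and 3, against 9.93, 9.68 and 10.76 in naive Brahman animals. Every infested Brahman array lay below every naive one, and the difference was -2.76 ± 0.63 log2 (SE). The same probe set read 5.73, 5.82 and 6.83 in infested Holstein-Friesian animals, against 9.69, 9.07 and 8.37 in naive ones. Here too the groups did not overlap, and the difference was -2.92 ± 0.63. It was the only GSTA2 probe set that passed in Holstein-Friesian animals. Its difference there was -2.59 without naive Holstein-Friesian 1 and -3.27 without infested Holstein-Friesian 3, and it failed to pass in both cases. Leaving out infested Holstein-Friesian 1 (-2.72), infested Holstein-Friesian 2 (-2.77) or naive Holstein-Friesian 2 (-2.91) also ended its call. The Brahman difference was -1.94 and passed without infested Brahman 3, did not pass without naive Brahman 3 (-2.44), and was -3.74 and passed with the index as a covariate.

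Probe sets Bt.227.2.A1_a_at, Bt.227.3.A1_a_at and Bt.227.3.A1_x_at differed more between naive animals of the breeds and less within Holstein-Friesian animals. Bt.227.2.A1_a_at measured 8.90, 7.89 and 8.58 in infested Brahman skin, against 11.36, 10.96 and 11.67 in naive Brahman skin, a 7.34-fold lower signal. It measured 7.23, 8.64 and 9.95 in infested Holstein-Friesian skin, against 9.07, 8.88 and 10.84 in naive skin of that breed. The Holstein-Friesian groups overlapped, and array 3 was the highest of both. Bt.227.3.A1_a_at gave the same picture, with 8.72, 7.36 and 7.99 in infested Brahman, against 10.85, 10.36 and 10.71 in naive Brahman animals. Its values were 7.44, 7.86 and 9.12 in infested Holstein-Friesian, against 8.40, 8.23 and 10.06 in naive Holstein-Friesian animals, and these overlapped. The log2 differences of these 2 probe sets were -2.88 ± 0.65 and -2.62 ± 0.54 in Brahman, both passing, the first not without naive Brahman 3 (-2.70) and neither with the index as a covariate (-2.57 and -2.91), and -0.99 ± 0.65 and -0.76 ± 0.54 in Holstein-Friesian animals. The Holstein-Friesian value of Bt.227.2.A1_a_at was -0.30 without infested Holstein-Friesian 1 and -1.66 without infested Holstein-Friesian 3. That of Bt.227.3.A1_a_at ran from -1.25 without infested Holstein-Friesian 3 to -0.18 without naive Holstein-Friesian 3.

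Bt.227.3.A1_x_at did not overlap between infested and naive animals in either breed. It stood at 9.38, 8.71 and 8.64 in infested Brahman, against 10.99, 10.29 and 11.06 in naive Brahman skin. In infested Holstein-Friesian skin it stood at 7.91, 8.09 and 9.10, against 9.46, 9.12 and 10.02 in naive skin. The differences were -1.87 ± 0.36 in Brahman and -1.17 ± 0.36 in Holstein-Friesian animals, and the Holstein-Friesian one did not pass, except when the 6 Holstein-Friesian arrays were fitted alone with replicate number as a block.

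Bt.227.1.A1_at, the GSTA2 probe set with the highest mean signal (9.64 log2), was the one that ran in opposite directions. It read 10.07, 8.63 and 10.36 in infested Brahman, against 11.40, 10.94 and 11.24 in naive Brahman animals. In Holstein-Friesian animals it read 9.35, 9.31 and 10.57 after infestation, against 4.60, 8.22 and 11.02 in naive animals. Naive Holstein-Friesian 1 was thus the lowest of all 12 arrays on this probe set, although the same array read between 8.40 and 9.69 on the other 4. The difference was -1.51 ± 1.20 in Brahman and 1.79 ± 1.20 in Holstein-Friesian animals, and neither passed. Without naive Holstein-Friesian 1 the Holstein-Friesian value was 0.12, and without naive Holstein-Friesian 3 it was 3.33.

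**Figure D2:**
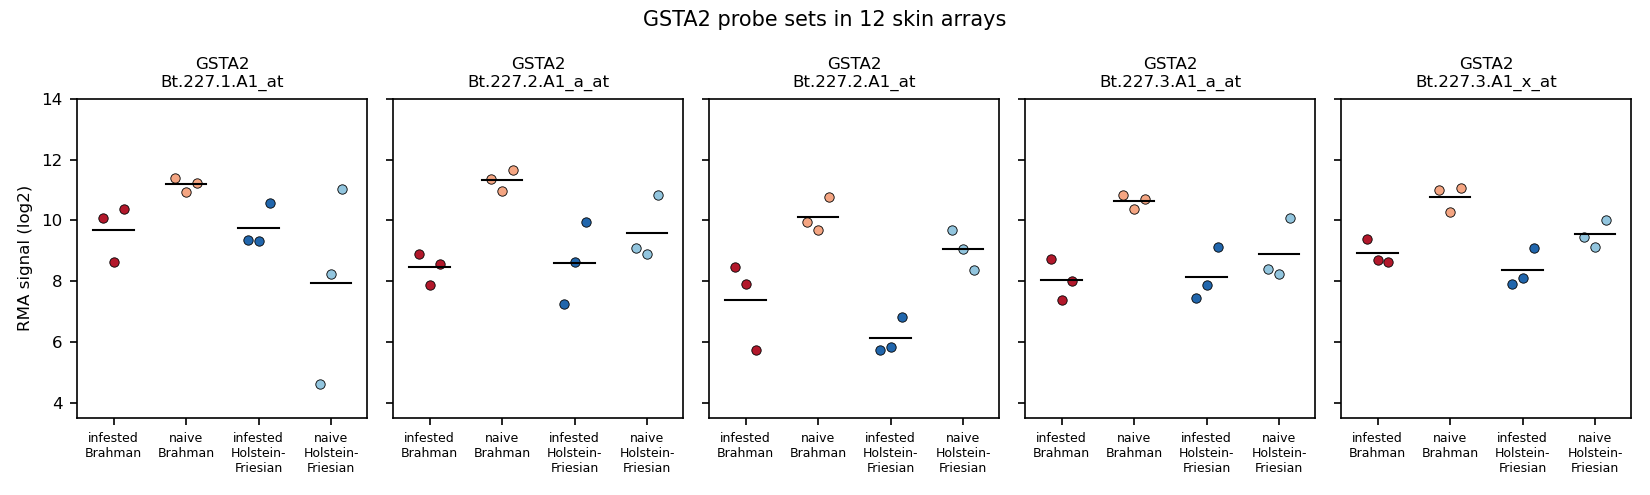
RMA signal (y axis, log2) of the 5 GSTA2 probe sets, with 1 point per array, arrays 1 to 3 from left to right within each group, and a bar at the group mean. The 3 naive Brahman arrays sit close together between 9.68 and 11.67 in every panel, and naive Holstein-Friesian 1 stands alone at 4.60 in the first.

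MGST1, a membrane-bound glutathione transferase of the endoplasmic reticulum and the outer mitochondrial membrane, had 1 probe set among the brightest on the array (98.5th percentile of mean signal). It stood at 10.65, 10.79 and 10.50 log2 in infested Brahman, against 11.97, 12.35 and 12.47 in naive Brahman skin. In infested Holstein-Friesian skin it stood at 10.44, 11.77 and 11.69, against 12.70, 12.50 and 12.70 in naive skin. Infested arrays lay below naive ones in both breeds, and infested Holstein-Friesian 1, the array of lower integrity, was the lowest of its group. The differences were -1.62 ± 0.30 in Brahman and -1.33 ± 0.30 in Holstein-Friesian animals. Both passed. The Holstein-Friesian difference was -0.90 without infested Holstein-Friesian 1, and it failed to pass when any of naive Holstein-Friesian 1 (-1.30), 2 (-1.40) or 3 (-1.30), infested Holstein-Friesian 3 (-1.53) or naive Brahman 2 (-1.33) was left out, and when the 6 Holstein-Friesian arrays were fitted alone with replicate number as a block (-1.33). The Brahman difference was -1.16 with the index as a covariate and then did not pass.

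GSTP1 is the pi-class transferase that is abundant in many epithelia. The array carried a probe set for LOC281806, which the RefSeq gene table places next to GSTP1 and lists with GSTP1 as an older name. It is no member by symbol and its values are given for comparison. It read 9.61, 11.06 and 11.01 in infested Brahman, against 11.72, 11.52 and 11.47 in naive Brahman animals. In Holstein-Friesian animals it read 11.44, 11.38 and 11.30 after infestation, against 12.32, 12.40 and 12.38 in naive animals. The differences were -1.01 ± 0.31 (limma, adjusted p = 0.0410) and -0.99 ± 0.31 (limma, adjusted p = 0.0891). Infested Brahman 1, the array of lowest integrity, was the lowest. Without it the Brahman difference was -0.54 and passed (limma, adjusted p = 0.0153), and with the index as a covariate it was -0.25 and did not pass (limma, adjusted p = 0.702). The Brahman call was lost without any 1 of the 6 naive arrays or of infested Holstein-Friesian 2 and 3. The Holstein-Friesian difference passed with the index as a covariate, at -0.84 (limma, adjusted p = 0.0449). With the replicate block the Brahman difference of -1.01 did not pass (limma, adjusted p = 0.0520).

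The array also uses a glutathione transferase as one of its 5' to 3' control transcripts. The platform annotation assigns it to LOC327709, which RefSeq lists with GSTM1 as an older name, a mu-class enzyme. Its 5' probe set read 6.37, 7.22 and 6.70 in infested Brahman, against 7.87, 7.84 and 7.73 in naive Brahman arrays. In Holstein-Friesian arrays it read 6.59, 7.01 and 6.98 after infestation, against 7.66, 8.00 and 7.68 in naive skin. Its 3' probe set read 8.14, 8.79 and 8.09 in infested Brahman, against 8.48, 8.13 and 8.37 in naive Brahman arrays, and these overlapped. In Holstein-Friesian arrays the 3' probe set read 8.39, 7.38 and 7.96 after infestation, against 8.75, 8.59 and 8.49 in naive skin. The same transcript was thus lower at its 5' end in both infested groups, whereas at its 3' end the infested arrays lay below the naive ones in Holstein-Friesian animals and overlapped them in Brahman animals. Its 5' minus 3' signal averaged -1.58 in infested Brahman, -0.51 in naive Brahman, -1.05 in infested Holstein-Friesian and -0.83 in naive Holstein-Friesian arrays. Control probe sets were not tested. The position of the GSTA2, MGST1, NQO1, FMO5 and CYP1A1 probe sets along their transcripts was not used here. The part of RNA integrity in their differences was not tested. Fits with the index cannot decide it in Brahman animals, whose infested arrays (-4.91 to -2.07) and naive arrays (-1.04 to -0.85) do not overlap in index.

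**Figure D3:**
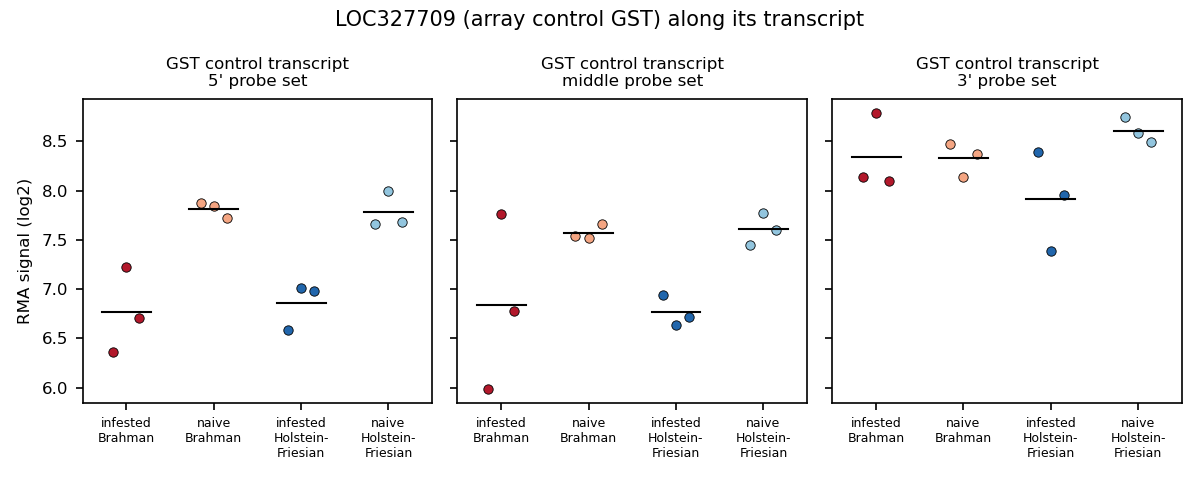
RMA signal (y axis, log2) of the 5', middle and 3' probe sets of the control transcript LOC327709, with 1 point per array and a bar at the group mean. On the 5' probe set every infested array (6.37 to 7.22) lies below every naive array (7.66 to 8.00), and on the 3' probe set the Brahman groups overlap.

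NQO1, the quinone reductase, was measured by 1 probe set. It stood at 10.14, 9.50 and 9.01 log2 in infested Brahman, against 13.07, 11.63 and 12.52 in naive Brahman skin. In infested Holstein-Friesian skin it stood at 9.73, 9.25 and 9.30, against 11.99, 11.34 and 11.99 in naive skin. The highest of the 6 infested arrays was 10.14 and the lowest of the 6 naive arrays 11.34. The fold difference was 7.24 in Brahman (-2.86 ± 0.37 log2) and 5.08 in Holstein-Friesian animals (-2.34 ± 0.37). Both passed, the Brahman one whichever array was left out and the Holstein-Friesian one in 11 of 12 cases, the exception being naive Holstein-Friesian 1 (-2.23). With the index as a covariate the differences were -3.67 and -2.50, and both passed.

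**Figure D4:**
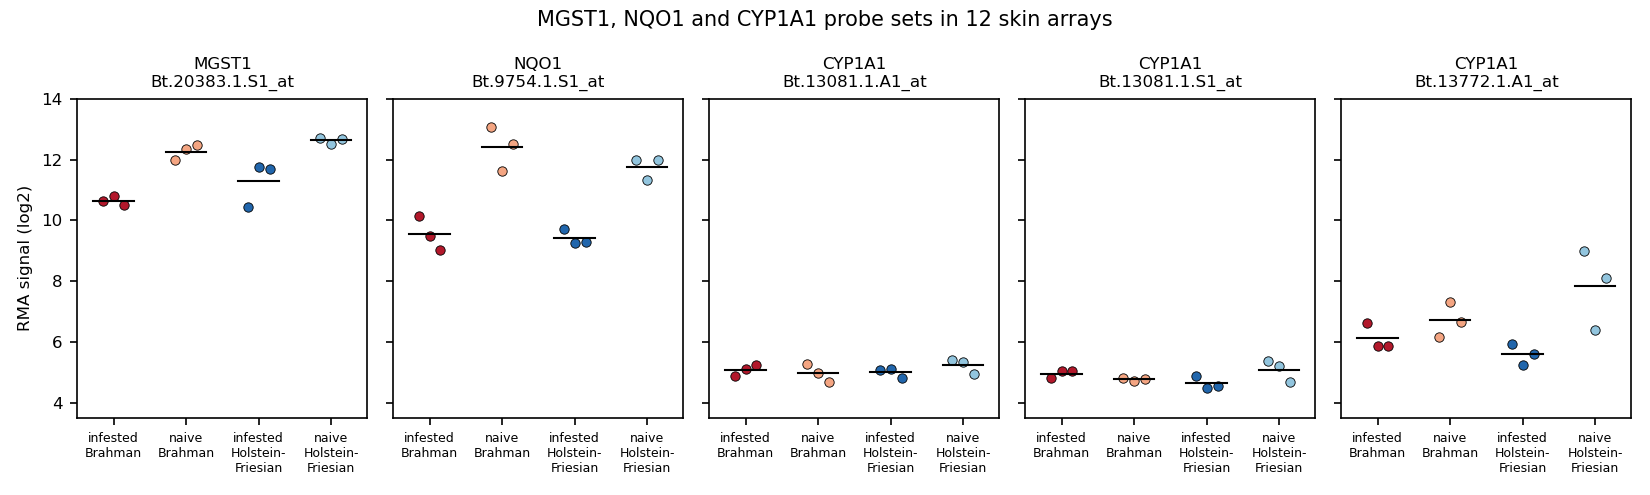
RMA signal (y axis, log2) of the MGST1, NQO1 and CYP1A1 probe sets, with 1 point per array, arrays 1 to 3 from left to right within each group, and a bar at the group mean. For NQO1 no infested array exceeds 10.14 and no naive array is below 11.34, and 2 of the 3 CYP1A1 probe sets stay between 4.47 and 5.41 in all 12 arrays.

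FMO5 encodes a flavin-containing monooxygenase that, unlike most of its family, oxidises ketones and aldehydes rather than nitrogen and sulphur compounds. Its 5 probe sets spanned mean signals from 7.05 to 11.54 log2 and did not move together. The difference furthest from zero was that of Bt.13414.1.S1_at, which read 6.36, 5.77 and 5.54 in infested Brahman, against 10.08, 9.85 and 10.27 in naive Brahman skin. This was an 18.1-fold lower signal (-4.17 ± 0.60 log2) that passed whichever array was left out and with the index as a covariate (-3.49). In infested Holstein-Friesian skin it read 5.96, 8.97 and 7.63, against 8.88, 10.18 and 9.58 in naive skin. Those groups overlapped, and the value of infested Holstein-Friesian 1 was within the range of infested Brahman animals. The Holstein-Friesian difference of -2.03 ± 0.60 did not pass, was -1.25 without infested Holstein-Friesian 1, and was -2.75 and passed without infested Holstein-Friesian 2. It also passed when the 6 Holstein-Friesian arrays were fitted alone with replicate number as a block.

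Bt.17110.2.A1_at, the FMO5 probe set of the next highest mean signal after the brightest, stood at 9.90, 9.49 and 9.69 in infested Brahman, against 11.87, 11.43 and 11.51 in naive Brahman skin. In infested Holstein-Friesian skin it stood at 9.67, 11.23 and 10.67, against 10.99, 11.65 and 11.38 in naive skin. Again only the Brahman groups were separate, and array 1 was the lowest of the infested Holstein-Friesian arrays. The differences were -1.91 ± 0.33 in Brahman, which passed but not with the index as a covariate (-1.50), and -0.82 ± 0.33 in Holstein-Friesian animals, which did not. Bt.13414.2.S1_at was dimmer, with 5.72, 6.48 and 6.02 in infested Brahman, against 7.91, 7.09 and 7.40 in naive Brahman animals. Its Holstein-Friesian values of 6.27, 7.46 and 7.08 in infested animals overlapped with 7.82, 8.43 and 6.96 in naive ones. The Brahman difference of -1.39 ± 0.40 passed, but not without infested Brahman 1 (-1.21), infested Brahman 3 (-1.36), naive Brahman 1 (-1.17) or naive Brahman 3 (-1.42), nor with the index as a covariate (-0.68).

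The 2 other FMO5 probe sets did not pass in either breed. Bt.17110.1.A1_at, the brightest, read 11.45, 11.28 and 10.87 in infested Brahman, against 12.04, 11.57 and 11.33 in naive Brahman arrays. It read 11.56, 11.83 and 11.59 in infested Holstein-Friesian, against 11.52, 11.68 and 11.75 in naive Holstein-Friesian arrays. Both pairs of groups overlapped, with differences of -0.44 ± 0.20 and 0.01 ± 0.20. Bt.13414.3.A1_at read 7.43, 7.92 and 8.73 in infested Brahman, against 8.31, 8.35 and 8.09 in naive Brahman arrays, and infested Brahman 3 was the highest of all. It read 7.60, 7.86 and 8.13 in infested Holstein-Friesian, against 8.53, 7.95 and 8.18 in naive Holstein-Friesian arrays. These groups overlapped too, with differences of -0.22 ± 0.29 in Brahman and -0.35 ± 0.29 in Holstein-Friesian animals. Thus 3 of the 5 FMO5 probe sets passed in Brahman skin, and 1 of the 5, Bt.13414.1.S1_at, did so with the index as a covariate.

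**Figure D5:**
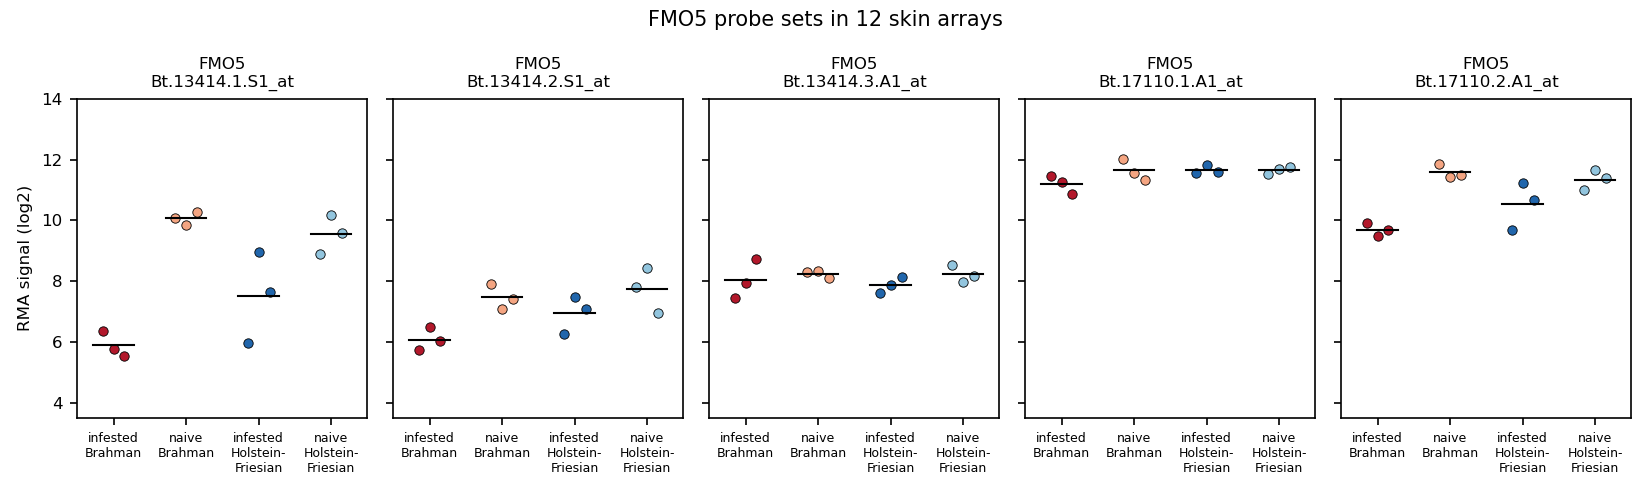
RMA signal (y axis, log2) of the 5 FMO5 probe sets, with 1 point per array, arrays 1 to 3 from left to right within each group, and a bar at the group mean. Infested Brahman arrays lie below naive Brahman arrays in the panels of Bt.13414.1.S1_at, Bt.13414.2.S1_at and Bt.17110.2.A1_at, and in the other 2 panels the infested and naive arrays of each breed overlap.

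CYP1A1, a cytochrome P450 that oxidises polycyclic aromatic compounds, gave low signal. Bt.13081.1.A1_at and Bt.13081.1.S1_at had mean signals of 5.06 and 4.85 log2, which is percentile 25.3 and 22.2 of all probe sets, and stayed between 4.47 and 5.41 in every array. Their differences lay between -0.45 and 0.19 in the 2 breeds and none passed. The third, Bt.13772.1.A1_at, read 6.63, 5.85 and 5.86 in infested Brahman, against 6.17, 7.30 and 6.65 in naive Brahman skin, and these overlapped. In infested Holstein-Friesian skin it read 5.94, 5.23 and 5.58, against 8.98, 6.40 and 8.10 in naive skin. The Holstein-Friesian groups were separate, and the naive arrays spread over more than 2 log2 units. The Holstein-Friesian difference of -2.24 ± 0.54 passed, the Brahman difference of -0.59 ± 0.54 did not. With the replicate number as a block the Holstein-Friesian difference was still -2.24 and did not pass, while it passed when the 6 Holstein-Friesian arrays were fitted alone with that block. It was -1.67 without naive Holstein-Friesian 1 and -2.96 without naive Holstein-Friesian 2, and it passed in 3 of the 12 fits that left out 1 array.

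Whether the infestation difference itself differed between the breeds was asked for all 15 probe sets. In limma none passed (lowest adjusted p = 0.657, with 4 at an unadjusted p under 0.05), where 0.00416% of all probe sets did. The values furthest apart were those of GSTA2 Bt.227.1.A1_at (-3.30 ± 1.69, Brahman minus Holstein-Friesian) and FMO5 Bt.13414.1.S1_at (-2.15 ± 0.85). Without the 2 arrays of lowest integrity 2 FMO5 probe sets passed, Bt.13414.1.S1_at at -3.16 (limma, adjusted p = 0.0177) and Bt.17110.2.A1_at at -1.63 (limma, adjusted p = 0.0252). In that fit 1131 of all 24016 probe sets passed. With infested Holstein-Friesian 1 alone left out Bt.13414.1.S1_at passed at -2.93 (limma, adjusted p = 0.0420), where 390 of all 24016 did. FMO5 was chosen with its Brahman difference known, so these values describe the arrays and are no independent test. Naive animals were 18 months old in Brahman and 12 in Holstein-Friesian, against 6 in both infested groups. The age gap thus differed between the breeds and cannot be told apart from a breed difference in the infestation effect.

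The breed comparison averaged over naive and infested animals is, with all 12 arrays, orthogonal to the infestation differences and could be tested. Its naive part sets Brahman animals of 18 months against Holstein-Friesian animals of 12 months, so age is mixed with breed there. None of the 15 probe sets passed in limma (lowest adjusted p = 0.262, with 3 at an unadjusted p under 0.05), where 0.137% of all probe sets did. All 5 GSTA2 probe sets were higher in Brahman than in Holstein-Friesian skin, by 0.79 to 1.60 log2. The smallest adjusted p belonged to Bt.227.3.A1_x_at, at 0.89 ± 0.25. MGST1 differed by -0.51 ± 0.21 and NQO1 by 0.38 ± 0.26 (limma, adjusted p = 0.503 and 0.715). Without infested Holstein-Friesian 1 the MGST1 difference was -0.73 and passed, but the contrast is then no longer orthogonal and the value is a description. In that fit 260 of all 24016 probe sets passed.

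Among naive animals alone the 5 GSTA2 probe sets were 1.08 to 3.25 log2 higher in Brahman skin, but none passed in limma (lowest adjusted p = 0.517), where 0.025% of all did. There 4 of the 15 probe sets had an unadjusted p under 0.05, and naive Brahman animals were 6 months older than naive Holstein-Friesian animals. Among infested animals, which were of the same age, the 5 GSTA2 values lay between -0.16 and 1.24. None of the 15 passed among infested animals either (limma, lowest adjusted p = 0.314, with 3 at an unadjusted p under 0.05), where 0.167% of all did. Without infested Holstein-Friesian 1, 3 of the 15 probe sets were lower in infested Brahman than in infested Holstein-Friesian skin by limma. In that fit 1235 of all 24016 probe sets passed in either direction, against 40 with all 12 arrays. The 3 were MGST1 at -1.09, FMO5 Bt.13414.1.S1_at at -2.41 and FMO5 Bt.17110.2.A1_at at -1.26. The infested Brahman arrays behind them also entered the differences by which the genes were chosen, so these values are a description and no independent test.

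Together 6 lists with 111 measured genes gave the rest of the pathway, each gene by its probe set of highest mean signal. In Brahman animals 31 of the 111 were lower and 4 higher after infestation, with a median of -0.42 log2. Over all 9155 genes 11.2% were lower and 8.5% higher, with a median of -0.02. In Holstein-Friesian animals 12 of the 111 were lower and 2 higher, with a median of -0.11, where 2.84% and 3.13% of all genes were and the median was -0.04. None of the 111 passed in the difference between the breeds' infestation effects (limma, with 14 at an unadjusted p under 0.05), where 0.0109% of all genes did.

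Other glutathione transferases were measured by 8 genes, of which 3 were lower in infested Brahman skin and none higher. MGST2, which can also make leukotriene C4, had 8.53 ± 0.16 in infested and 10.11 ± 0.13 log2 in naive Brahman skin (SD), a 2.99-fold difference (limma, adjusted p = 0.00136). GSTK1 of mitochondria and peroxisomes was 1.74-fold lower and MGST3 1.51-fold lower (limma, adjusted p = 0.0281 and 0.0494). In Holstein-Friesian skin GSTK1 was 2.05-fold lower and PTGES, a prostaglandin E synthase of the same membrane family as MGST1, 1.85-fold higher (limma, adjusted p = 0.0265 and 0.0466). For GSTK1, 1 of 3 probe sets passed in each breed. With the replicate block PTGES did not pass (limma, adjusted p = 0.0772).

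Glutathione synthesis and peroxidase genes numbered 21, with 6 lower and 1 higher in infested Brahman skin. GCLM, the modifier subunit of the rate-limiting ligase of glutathione synthesis, had 6.37 ± 0.18 in infested and 7.94 ± 0.52 in naive Brahman skin (SD), 2.97-fold lower (limma, adjusted p = 0.00632). GGT1, which breaks down glutathione outside the cell, was 5.63-fold lower (limma, adjusted p = 0.00268), and its relative GGT6 1.60-fold lower. GPX7, a peroxidase of the endoplasmic reticulum, was the exception at 8.88 ± 0.20 in infested and 6.53 ± 0.21 in naive Brahman skin, 5.09-fold higher (limma, adjusted p = 0.000170). In Holstein-Friesian skin 3 of the 21 were lower and none higher. These were GSS, the enzyme of the last step of glutathione synthesis, at 2.04-fold, GGT1 at 3.55-fold and GCLM at 2.26-fold (limma, adjusted p = 0.0229, 0.0289 and 0.0487).

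Among 23 regulators and targets of NRF2, 7 were lower and none higher in infested Brahman skin, and 3 were lower and none higher in Holstein-Friesian skin. BLVRB, a biliverdin reductase, was 2.26-fold lower in both breeds (limma, adjusted p = 0.000673 in Brahman and 0.00280 in Holstein-Friesian animals). It had 8.82 ± 0.19 in infested against 10.00 ± 0.06 in naive Brahman, and 9.08 ± 0.13 in infested against 10.26 ± 0.08 in naive Holstein-Friesian skin (SD). PRDX1, a peroxiredoxin, was 1.96-fold lower in Brahman and 1.68-fold lower in Holstein-Friesian skin (limma, adjusted p = 0.000979 and 0.0111). TALDO1 of the pentose phosphate pathway was 2.40-fold and 1.73-fold lower (limma, adjusted p = 0.00246 and 0.0454), and the Holstein-Friesian difference did not pass with the replicate block (limma, adjusted p = 0.0559). TXNRD1, a thioredoxin reductase, was 2.33-fold lower in Brahman skin (limma, adjusted p = 0.0129).

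The aryl hydrocarbon receptor and P450 list of 19 genes had 4 lower and 2 higher in infested Brahman skin, and 1 lower in infested Holstein-Friesian skin. CYB5A, the cytochrome b5 that passes electrons to several P450s, had 6.47 ± 0.18 in infested and 9.43 ± 0.45 in naive Brahman skin (SD), 7.76-fold lower (limma, adjusted p = 0.000163). In Holstein-Friesian skin it was 3.01-fold lower (limma, adjusted p = 0.00763). CYB5R3, a reductase of cytochrome b5, was 1.84-fold lower and the P450 gene CYP2U1 1.95-fold higher in Brahman skin (limma, adjusted p = 0.0160 and 0.00698). POR, the reductase that serves all microsomal P450s, differed by -2.46 ± 0.74 in Brahman skin (limma, adjusted p = 0.0388). Its value was -1.26 without infested Brahman 1, -3.07 without infested Brahman 2 and -3.05 without infested Brahman 3, and with the index as a covariate it was -0.64 and did not pass. POR lost its call in 7 of the 12 fits that left out 1 array, namely without any naive array or infested Holstein-Friesian 3. It also lost it with only the arrays compared (limma, adjusted p = 0.130).

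Both other flavin-containing monooxygenases measured were lower in infested Brahman skin. FMO2 had 9.91 ± 0.92 in infested and 11.99 ± 0.28 in naive Brahman skin (SD), 4.23-fold lower, and FMO1 was 1.72-fold lower at a mean of 4.49 in infested animals (limma, adjusted p = 0.00829 and 0.0210). Neither passed in Holstein-Friesian animals (limma, with 1 of the 2 at an unadjusted p under 0.05). The last list, of 38 further oxidising and conjugating enzymes, had 9 lower and 1 higher in infested Brahman, and 4 lower and 1 higher in infested Holstein-Friesian skin. In Brahman animals the aldehyde dehydrogenases ALDH3A2 and ALDH2 were 2.83-fold and 1.89-fold lower and the sulphur transferase TST 2.04-fold lower (limma, adjusted p = 0.00491, 0.00973 and 0.00895). For TST 2 of 3 probe sets passed. In Holstein-Friesian animals UGT1A6, which attaches glucuronic acid, was 2.15-fold and the aldehyde oxidase AOX1 1.92-fold lower, and the thiopurine methyltransferase TPMT 1.75-fold higher (limma, adjusted p = 0.0377, 0.0407 and 0.0447). With the replicate block TPMT did not pass (limma, adjusted p = 0.0732).

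PON3, a lactonase of the paraoxonase family, was lower in infested skin of both breeds, 2.65-fold in Brahman and 2.99-fold in Holstein-Friesian animals (limma, adjusted p = 0.0171 and 0.0283). Its signal was low in Brahman skin, at 4.61 ± 0.57 in infested and 6.02 ± 0.16 log2 in naive animals (SD). In Holstein-Friesian skin it was 9.13 ± 0.40 in infested and 10.71 ± 0.60 in naive animals. It was also the 1 gene of the 111 that passed between the breeds averaged over naive and infested animals, at -4.60 ± 0.24 log2 in Brahman relative to Holstein-Friesian skin (limma, adjusted p = 1.99e-05), where 0.131% of all genes did. Among naive animals alone PON3 was again the 1 gene that passed, where 0.0328% of all did. Naive animals differed in age between the breeds, which enters this comparison and the averaged one. Among infested animals PON3 was lower and GPX7 higher in Brahman than in Holstein-Friesian skin, the second by 1.27 ± 0.20 (limma, adjusted p = 0.0374), where 0.251% of all did, and these 2 are named because they were all that passed there, after their values were seen. With the replicate block GPX7 did not pass (limma, adjusted p = 0.0754). With the RNA integrity index as a covariate it was 1.16 and did not pass either (limma, adjusted p = 0.118). It passed in 3 of the 12 fits that left out 1 array.

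Of 21 such calls on named list genes in Brahman animals, 13 passed whichever array was left out. They were MGST2, GPX7, GGT1, GCLM, BLVRB, PRDX1, TALDO1, CYB5A, CYP2U1, FMO2, ALDH3A2, TST and ALDH2. With the covariate for RNA integrity 8 of the 21 passed, namely MGST2, GPX7, BLVRB, PRDX1, TALDO1, CYB5A, FMO1 and PON3. Of the 13, 7 lost their call with it, at adjusted p (limma) of 0.0587 for GGT1, 0.104 for GCLM, 0.0556 for CYP2U1, 0.172 for FMO2, 0.0589 for ALDH3A2, 0.152 for TST and 0.0905 for ALDH2. The FMO2 difference was then -1.31, against -2.08 without the covariate. Without the 2 arrays of lowest integrity 20 of the 21 passed. Infested Brahman 2 and 3, which then remained, had indices of -2.56 and -2.07, still below the naive Brahman arrays (-1.04 to -0.85). Neither that fit nor the one with the covariate can therefore tell RNA integrity apart from infestation in Brahman animals. In Holstein-Friesian animals BLVRB and CYB5A passed whichever array was left out, and the other 11 of 13 calls did not pass without naive Holstein-Friesian 1 (2 of 13 passed). Leaving out infested Holstein-Friesian 2 or 3 left 3 of the 13, leaving out naive Holstein-Friesian 2 or 3 left 4, and leaving out infested Holstein-Friesian 1 left 7.

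Markers of cell types in the biopsies moved beside these genes. For 13 markers of sebaceous glands and fatty acid synthesis, the mean level relative to naive skin was -1.50 to -1.15 log2 in infested Brahman, 0.02 to 0.27 in naive Brahman, -1.23 to -1.03 in infested Holstein-Friesian and -0.16 to -0.06 in naive Holstein-Friesian arrays. Of these markers 9 were lower and 1 higher in infested Brahman skin, and 6 lower and none higher in infested Holstein-Friesian skin. Over all genes 11.2% were lower and 8.5% higher in Brahman, and 2.84% and 3.13% in Holstein-Friesian skin. These shares apply to each marker count here. The 8 markers of glandular epithelium did not move one way, with 4 lower and 2 higher in infested Brahman skin and 4 lower and 1 higher in infested Holstein-Friesian skin. KRT7 differed by -2.08 in Brahman and -1.83 in Holstein-Friesian animals, AQP5 by 2.79 and 1.93. The mean of the 8 stood at -0.94 to -0.40 in infested Brahman and -0.21 to 0.41 in naive Brahman, and at -0.86 to -0.40 in infested and -0.45 to 0.09 in naive Holstein-Friesian arrays. The 6 fibroblast markers, all 6 of which passed as higher in infested Brahman and 2 in infested Holstein-Friesian skin, stood at 0.96 to 1.33 in infested Brahman against -0.38 to -0.12 in naive Brahman, and at 0.84 to 0.99 in infested against 0.09 to 0.41 in naive Holstein-Friesian arrays.

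None of 6 keratinocyte markers passed in either breed (limma, with 0 at an unadjusted p under 0.05), and their level stayed between -0.17 and 0.10 in all 12 arrays. The 7 leukocyte markers stood at 0.40 to 0.92 in infested and -0.18 to 0.60 in naive Brahman arrays, and at 0.48 to 1.10 in infested and -0.42 to 0.18 in naive Holstein-Friesian arrays. Adipocyte markers, 6 in number, stood at 0.97 to 1.99 in infested and -0.28 to 0.56 in naive Brahman arrays, and at 0.31 to 0.54 in infested and -0.53 to 0.23 in naive Holstein-Friesian arrays. The 10 skeletal muscle markers ranged from -1.02 to -0.63 in infested and -0.84 to 1.06 in naive Brahman arrays, and from -0.92 to -0.57 in infested and -0.66 to -0.06 in naive Holstein-Friesian arrays. The 7 liver markers lay between 0.37 and 0.70 in the infested arrays of both breeds, and between -0.24 and 0.16 in the naive arrays. Muscle markers went both ways, with 1 higher and 3 lower in infested Brahman skin and none passing in Holstein-Friesian skin. Of leukocyte, adipocyte and liver markers 1, 3 and 2 were higher in Brahman and 2, 0 and 1 in Holstein-Friesian skin, and none lower. The part of cell makeup in the differences of the xenobiotic genes was not tested.

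The genes whose signal followed each member most closely were found by Pearson's r over the 12 arrays. Each member gene was taken by its probe set of highest mean signal, and all probe sets with 1 symbol of another gene were searched. All 12 points share the group differences, so these are descriptions. For NQO1 they were KRT7 (r = 0.978), CHPT1 (0.973) and THRSP (0.970), the first a keratin of glandular epithelium and the last a regulator of fatty acid synthesis, each also a marker in the lists above, of which the glandular one moved both ways. MGST1 was followed by ATP8A1 (r = 0.980), FBP1 (0.972) and LTV1 (0.970). CYP1A1 was followed by FAM169A (0.902), MIA2 (0.858) and RASA2 (0.857), and FMO5, by its brightest probe set Bt.17110.1.A1_at, by KITLG (0.868), LOC100847724 (0.847) and COL11A1 (0.814). REEP5 came closest to GSTA2 Bt.227.1.A1_at (r = 0.923), followed by MMAA (0.821) and LOC785762 (0.792). Without naive Holstein-Friesian 1 the REEP5 value was 0.742.

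When each array was instead taken as its deviation from its group mean, which removes the group differences, other genes led for 4 of the 5. For NQO1 they were CDK20 (r = 0.933), USP50 (0.928) and TMEM140 (0.921), and for MGST1 CRYZL1 (0.966), TMEM59 (0.949) and CALCRL (0.949). FMO5 was followed by HGF (0.928), PIDD1 (0.919) and SRP68 (0.916), and CYP1A1 by MAP3K20 (0.930), SLC25A4 (0.916) and the dipeptidase DPEP1 (0.902). REEP5 remained the closest to GSTA2 Bt.227.1.A1_at (0.922), ahead of AFAP1L1 (0.826) and DENR (0.814). Without naive Holstein-Friesian 1 these GSTA2 values were 0.831, 0.671 and 0.673. Without infested Holstein-Friesian 1 the MGST1 values were 0.909, 0.864 and 0.863. Those of NQO1, FMO5 and CYP1A1 lay between 0.843 and 0.937 without the lowest array of each. All were picked as the highest r among the probe sets searched, so these too are descriptions.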

How the data were processed

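The authors deposited RMA signals on the log2 scale, with RMA named in the submitters' processing notes and the scale read from the values. Which program ran RMA is not stated in those notes. Of 24128 probe sets, 112 controls were left out and 24016 tested without a filter on low signal. Gene names come from the platform annotation, in which 13292 tested probe sets have 1 symbol, 86 several and 10638 none. Detection calls were not used here.

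All 12 arrays entered 1 model of 4 group means in limma 3.58.1 (R 4.3.3; lmFit and eBayes, 8 residual and 3.03 prior degrees of freedom). P-values were two-sided and adjusted by Benjamini-Hochberg over all probe sets of a comparison, with a threshold of 0.05. The procedure was tested on simulated data for the infestation difference of each breed and the averaged breed difference, with 200 changed probe sets each. Of changes of 1 log2 unit 44% were recovered in Brahman, 56% in Holstein-Friesian animals and 81% between the breeds. Of changes of 2 log2 units 85%, 85% and 96% were recovered. The other comparisons were not simulated. The 6 genes, the lists and the tests were chosen with earlier results of these data known. Named list genes were up to 4 per list and comparison, by smallest p among those past the threshold, and genes alike in pattern the 3 of highest Pearson r. No sequence was used, so promoters and proteins were not compared. The breed and infestation comparisons share arrays and one estimate of the spread. With all 12 arrays the averaged breed contrast is orthogonal to the infestation ones, but not when an array is left out.

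Replicate numbers are shared by the groups. Taken as deviations from their group, same-numbered infested and naive Holstein-Friesian arrays correlated at r = 0.113 to 0.249, which the rule used here takes as pairing, although no label explains it. In Brahman animals r was -0.189 to -0.053. No pair of arrays had more than 0.104% of values in common.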

Additional observations from a re-analysis of the deposited data

How the results depend on the processing

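Of the 15 probe sets, 4 passed in Holstein-Friesian and 9 in Brahman animals for infested against naive skin. Low-signal filtering, median centring, cyclic loess and a trended robust prior left both counts as they were. The Holstein-Friesian count was 6 with array weights, 2 with only the arrays compared, 3 with the replicate block and 0 to 4 when 1 array was left out, and the Brahman count was 8 with array weights, 4 with the integrity index as a covariate, 9 with the replicate block and 6 to 9 when 1 array was left out. In the fit of all arrays the replicate block changed, for infested against naive skin, the call of CYP1A1 Bt.13772.1.A1_at (-2.24) alone. In the 6 Holstein-Friesian arrays alone, a block added after seeing the data, 5 probe sets passed. There MGST1 (-1.33) lost its call, GSTA2 Bt.227.3.A1_x_at (-1.17) and FMO5 Bt.13414.1.S1_at (-2.03) gained one, and CYP1A1 Bt.13772.1.A1_at, NQO1 and GSTA2 Bt.227.2.A1_at passed. For the difference between the breeds' infestation effects, 1 passed with array weights, 2 without the 2 arrays of lowest index, and 0 to 1 when 1 array was left out. For the breed difference among infested animals these counts were 2, 3 and 0 to 3. For the averaged breed difference they were 0, 1 and 0 to 1, and among naive animals 0 in every setting. No call on a member changed its sign. Over all probe sets, calls moved by more than 1.5 times from 1206 in Holstein-Friesian animals to 4589 with array weights, 4076 without the 2 arrays, 2022 with the index and 157 to 2563 when 1 array was left out. From 4753 in Brahman animals they moved to 7657 with array weights, 3000 with only the arrays compared, 1808 with the index and 2216 to 5567 when 1 array was left out. For the difference between the breeds' infestation effects, 1 call over all probe sets became 648 with array weights, 1131 without the 2 arrays, 2 with cyclic loess, 0 with the replicate block and 0 to 390 when 1 array was left out. The 33 averaged breed calls became 506, 879, 55 with the index, 20 with the block and 12 to 260. The 40 among infested animals became 1082, 2200, 1 with only the arrays compared, 25 with the low-signal filter and 11 to 1235. The 6 among naive animals became 400, 66, 64 with only the arrays compared, 17 with the index, 13 with the trended prior and 5 to 37. Among the fits that left out 1 array, the lowest Brahman count of members, 6, came without naive Brahman 3. The cause was not tested.

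The counts of called list genes were compared under 3 settings, 2 of them (the index and the left-out arrays) chosen after seeing the data. Averaging a gene's probe sets, other glutathione transferases gave 1 call and NRF2 genes 5 in Holstein-Friesian animals. Without the 2 arrays of lowest index the Holstein-Friesian calls were 1 of 8 other transferases, 5 of 21 glutathione synthesis, 5 of 23 NRF2 and 5 of 19 P450 genes. Calls over all 24016 probe sets then rose from 1206 to 4076. With the index as a covariate the Brahman calls were 1 for other transferases, 2 for glutathione synthesis, and 1 each for P450 genes, monooxygenases and further enzymes. Calls over all probe sets then fell from 4753 to 1808. The Holstein-Friesian monooxygenases had 1 call of 2 with the index, where 2022 of all probe sets passed. The matching shares over all genes were not computed. Signal over background is unknown, which limits the dim CYP1A1 and FMO1 probe sets and PON3 in Brahman skin. The planned promoter and protein comparisons were not run, since no sequences were used here.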
